A study of Mus musculus with 8 samples.

Results

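Zbtb16, a zinc finger transcription factor known as PLZF, was examined in spleen neutrophils together with 7 genes tied to the glucocorticoid receptor. These were Nr3c1, which encodes the receptor itself, and its classic targets Fkbp5, Tsc22d3, Klf9, Sgk1, Ddit4 and Errfi1. Zbtb16 was picked for its strong fall between the genotypes, so its values in that contrast are given as a description, with no test. The other 7 genes were chosen by their known link to the receptor, but with earlier results of these data known. Counts of calls among them are therefore no independent evidence. All 8 genes are listed among the 55414 genes of the count tables, and 8 of 8 passed the filter on low counts that left 16778 genes for testing. The neutrophils came from 4 mice with intact Cxcr2 (strain FVB-WT, called WT) and 4 mice without it (strain FVB-Cxcr2-/-, called Cxcr2-/-). All 8 mice were 10 weeks old, were housed under SOPF conditions, and gave 1 spleen RNAseq library each. The knockout is constitutive and was bred onto the FVB background, so that every cell of these mice lacked the receptor, not neutrophils alone. Cells were enriched with CD11b beads and sorted as CD45+ CD11b+ Ly6G+ F4/80- cells. The comparison asks whether the low Zbtb16 RNA in Cxcr2-/- neutrophils came with changes of other genes under glucocorticoid control.

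Glucocorticoids such as corticosterone, the main adrenal glucocorticoid of the mouse, cross the cell membrane and bind a receptor held in the cytoplasm by chaperones of the Hsp90 machinery. The bound receptor moves to the nucleus, where it binds DNA, often as a dimer at palindromic response elements, and raises or lowers transcription of nearby genes. Glucocorticoids are known to prolong neutrophil survival, to release neutrophils from the marrow and to dampen inflammatory gene expression. Many of the induced genes also respond to other signals (mitogens, cytokines, osmotic or metabolic stress), so that none of them reads the hormone alone. Corticosterone was not measured in these samples.

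One receptor element was searched for in the DNA just before the genes' start sites, because it is the sequence through which the hormone receptor is best known to act. The letters searched were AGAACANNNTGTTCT, the palindromic response element, and a looser core, GNACANNNTGTNC, in which N stands for any base; both read the same on either strand, and each match of the first is also a match of the second. RefSeq promoters of GRCm38.p6, from 250 bases before to 50 bases after a start site, gave 14 windows for 6 of the 8 genes, and had no entry for Zbtb16 and Nr3c1. The palindrome was in 3 of all 32851 windows (0.00913%), and 1 of these belonged to Sgk1. The core was in 156 windows (0.475%), of which the same Sgk1 window was the only one among the 14. The Sgk1 window is shown because it holds the complete palindrome, in capitals, 174 bases before the start site at chr10:21993640-21993939 on the plus strand. The windows of Txnip (chr3:96557707-96558006, plus strand) and Map3k6 (chr4:133240568-133240867, plus strand) hold the core alone, in capitals. In the wider lists of glucocorticoid-induced genes described further on, the core was in the windows of 1 of 9 genes that acute stimuli also induce (Mt1) and 3 of 18 others (Txnip, Map3k6 and Fam107a). Of these only the pair called in opposite directions is shown, chosen after the values were seen.
Sgk1: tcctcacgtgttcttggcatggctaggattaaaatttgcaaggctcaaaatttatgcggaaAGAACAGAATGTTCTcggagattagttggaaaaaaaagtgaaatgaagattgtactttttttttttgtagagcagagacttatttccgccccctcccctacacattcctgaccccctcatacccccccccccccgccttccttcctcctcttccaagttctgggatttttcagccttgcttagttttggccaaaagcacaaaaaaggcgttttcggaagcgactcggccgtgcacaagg
Txnip: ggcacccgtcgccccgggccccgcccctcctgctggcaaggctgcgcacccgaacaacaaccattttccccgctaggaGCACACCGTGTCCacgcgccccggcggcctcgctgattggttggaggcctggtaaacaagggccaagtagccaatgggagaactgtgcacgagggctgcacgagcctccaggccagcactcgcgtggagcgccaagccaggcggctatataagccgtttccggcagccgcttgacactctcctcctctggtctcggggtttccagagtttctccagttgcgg
Map3k6: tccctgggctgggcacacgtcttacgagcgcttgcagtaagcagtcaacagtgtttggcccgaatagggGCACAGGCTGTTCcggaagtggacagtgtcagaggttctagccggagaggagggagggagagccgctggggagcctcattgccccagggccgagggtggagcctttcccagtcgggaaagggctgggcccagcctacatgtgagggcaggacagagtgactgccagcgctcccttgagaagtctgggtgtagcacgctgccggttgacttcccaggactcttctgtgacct
Such a match describes the letters of a window and is not evidence that the receptor binds there in neutrophils. Of the 5 genes that carry these letters in a window, Sgk1 and Txnip were called lower between the genotypes, Map3k6 higher and Mt1 neither, with values given below, and Fam107a did not pass the filter on low counts.

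Levels are given as CPM, counts of a gene per 1000000 counts of a TMM-scaled library, and a negative log2 fold change means lower in Cxcr2-/- than in WT. Genes are referred to as called, lower or higher, where edgeR's quasi-likelihood F test, with p-values adjusted by the Benjamini-Hochberg method over the 16778 genes, gave an adjusted p under 0.05. Each library is 1 mouse, so the p-values measure the spread between mice. Counts on genes ranged from 34220182 to 46233555 in WT and from 37549648 to 43789253 in Cxcr2-/- libraries, and 3 counts, the limit that a count of 0 allows, correspond to 0.0649 to 0.0877 CPM. Cxcr2, the targeted gene, averaged 1956 ± 221 CPM (SD, n = 4) over the WT libraries and 17.1 ± 3.46 CPM (SD, n = 4) over those of Cxcr2-/- mice. Neutrophil markers were strongly expressed in every library (7 genes, summed 28530 to 41480 CPM in WT and 63900 to 77450 CPM in Cxcr2-/-). Of the 7, 5 were called higher and 1, Csf3r, lower in Cxcr2-/-, against 23.7% and 21.0% of all genes tested. The share of reads that met no gene was 31.4% to 41.5% in WT and 26.7% to 31.9% in Cxcr2-/- libraries, and its part in the results was not tested.

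Zbtb16 encodes a BTB zinc finger repressor best known for directing innate-like lymphocytes, and its RNA is a sensitive readout of glucocorticoids in many tissues. It lies on chromosome 9 from 48654297 to 48836222 of GRCm38, on the minus strand. Its level was 33.1, 33.7, 30.2 and 35.03 CPM in WT mice 1 to 4 and 4.85, 4.90, 4.65 and 4.18 CPM in Cxcr2-/- mice 1 to 4. The lowest WT library was thus several times above the highest Cxcr2-/- library, and the mice of a genotype lay close together, with a coefficient of variation of 6.26% in WT and 7.06% in Cxcr2-/-. The means were 33.01 ± 2.07 CPM (SD, n = 4) and 4.65 ± 0.328 CPM (SD, n = 4), a log2 fold change of -2.83, or 7.11-fold lower in Cxcr2-/-. Only 0.387% of the genes tested had a lower log2 fold change. The counts behind these values were between 172 and 1679 per library, so that Zbtb16 was still well measured in the knockout. In bulk samples such as these, fewer cells that express a gene and less RNA per cell cannot be told apart.

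**Figure D1:**
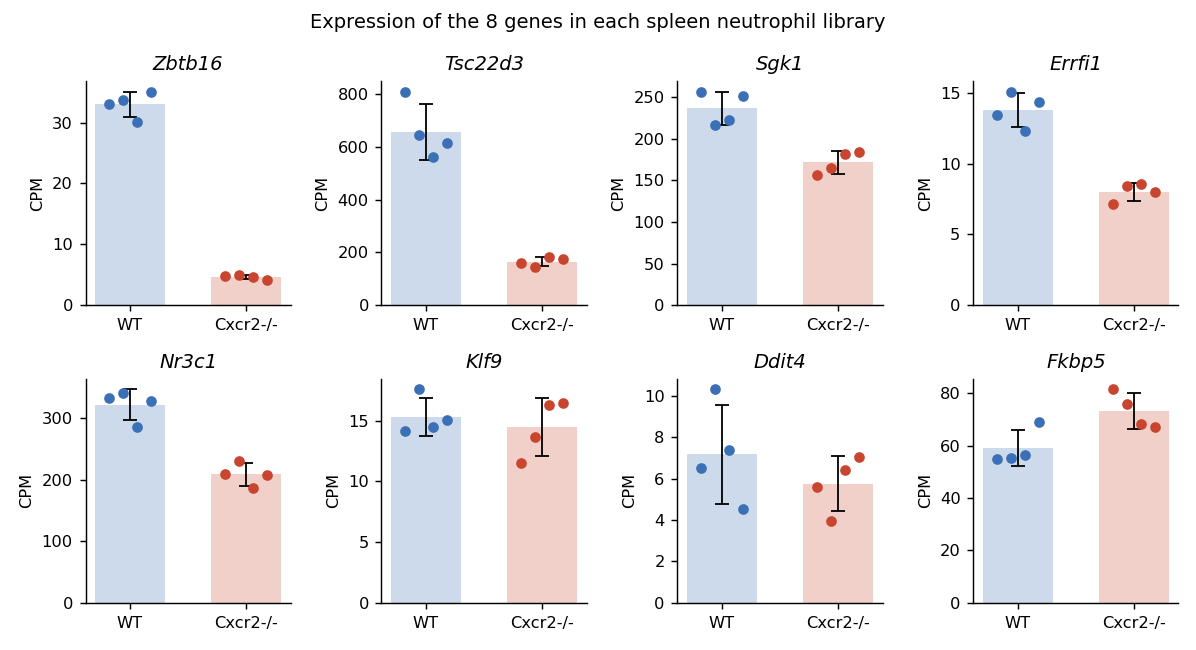
CPM of Zbtb16, Tsc22d3, Sgk1, Errfi1, Nr3c1, Klf9, Ddit4 and Fkbp5 (y axes, each from 0) in the WT (blue) and Cxcr2-/- (red) libraries. Points are mice, bars are means and error bars are SD (n = 4). The points of the 2 genotypes do not overlap for Zbtb16, Tsc22d3, Sgk1, Errfi1 and Nr3c1, and overlap for Klf9, Ddit4 and Fkbp5, where Fkbp5 alone has the higher mean in Cxcr2-/-.

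Because Zbtb16 is an established marker of innate-like lymphocytes, T, NK and other lymphocyte markers were examined beside it. Of 13 such genes, 8 passed the filter and 2, Cd2 and Tcf7, were called lower (median log2 fold change -0.25). Over all genes tested, 21.0% were called lower and 23.7% higher, and 19.1% were lower and 22.5% higher without overlap. The counts called lower here and among the 7 monocyte and macrophage markers below are near the first share. The call of Cd2 was lost without WT mouse 1, 2 or 3 or Cxcr2-/- mouse 1, 2 or 4, and that of Tcf7 without WT mouse 2 or Cxcr2-/- mouse 1 or 2 and with the replicate block (adjusted p = 0.061 by edgeR). Both were lost with the covariate for other cells (adjusted p = 0.0976 and 0.0748 by edgeR), which is built from such markers. Their summed level was 90.97 to 117.3 CPM in WT and 92.77 to 140 CPM in Cxcr2-/- libraries, nearly all of it from Cd3d, a component of the T cell receptor complex. Without Cd3d the sum was 3.82 to 10.9 CPM in WT and 3.46 to 5.49 CPM in Cxcr2-/-. Cd3e, the partner of Cd3d in the same complex, did not exceed 0.563 CPM in any library. Thy1 was at 0.2211, 0.3014, 0.05345 and 0 CPM in WT mice 1 to 4 and at 0 in all Cxcr2-/- libraries, and did not pass the filter. The B cell markers summed to 22.4 to 58.1 CPM in WT and 12.8 to 27.1 CPM in Cxcr2-/-, with 4 of 5 called lower and the genotypes overlapping for each of the 5. Without WT mouse 1 none of these B cell calls was kept, and 2 genes were called lower without WT mouse 3 or Cxcr2-/- mouse 1 or 2. Monocyte and macrophage markers summed to 437.4 to 537.1 CPM in WT and 200.6 to 293.4 CPM in Cxcr2-/-, mostly Csf1r, with 2 of 7 lower. Of the 4 eosinophil markers (summed 48.75 to 68.93 CPM in WT and 37.59 to 64.07 CPM in Cxcr2-/-), the surface receptors Siglecf (-0.57) and Ccr3 (-1.15) were called lower, without overlap, and the granule genes Prg2 (2.87) and Epx (2.78) higher, with overlap. With at least 10 counts required in every library, this list held 2 genes called lower and 0 higher. The summed markers of red cells and platelets (1.42 to 4.09 and 1.22 to 11.1 CPM) and of basophils and mast cells (at most 0.583 CPM) overlapped between the genotypes. The covariate for other cells was the mean log2 CPM of 20 tested lymphocyte, B cell, monocyte and macrophage markers. It held no marker of eosinophils, red cells, platelets, basophils or mast cells. With it the log2 fold change of Zbtb16 was -2.87.

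The receptor gene itself fell. Nr3c1, on chromosome 18 from 39410545 to 39519421 (minus strand), was at 333.3, 340.3, 285.6 and 328.6 CPM in WT mice 1 to 4 and at 209.8, 230.8, 186.6 and 206.9 CPM in Cxcr2-/- mice 1 to 4. Every WT library was above every Cxcr2-/- library. The means were 322.0 ± 24.7 and 208.5 ± 18.1 CPM (SD, n = 4 each), a log2 fold change of -0.63 (SE 0.0988, 95% interval -0.84 to -0.41, adjusted p = 0.000252 by edgeR), or 1.54-fold lower. The change stayed between -0.75 and -0.59 in the 16 alternative analyses, and the call held in each of them.

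Tsc22d3 encodes GILZ, a leucine zipper protein that binds and restrains inflammatory transcription factors such as NF-κB and AP-1 and is one of the most widely used receptor targets in leukocytes. It lies on chromosome X from 140539528 to 140600659 (minus strand). It was at 810.0, 647.4, 563.6 and 613.6 CPM in WT and at 158.4, 144.6, 182.6 and 176.5 CPM in Cxcr2-/- mice 1 to 4. The WT mice were all above the Cxcr2-/- mice by a wide margin. The means of 658.7 ± 106.6 and 165.5 ± 17.3 CPM (SD, n = 4 each) gave a log2 fold change of -1.99 (SE 0.130, 95% interval -2.27 to -1.71, adjusted p = 3.03e-07 by edgeR), or 3.98-fold lower. Of the 7 genes other than Zbtb16, Tsc22d3 had the largest change. It was called in all 16 alternatives, with a log2 fold change from -2.11 to -1.88.

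Errfi1 encodes MIG6, a feedback inhibitor of the EGF receptor family, and lies on chromosome 4 from 150853919 to 150868892 (plus strand). Its level was 13.4, 15.1, 12.3 and 14.4 CPM in WT and 7.13, 8.41, 8.54 and 8.02 CPM in Cxcr2-/- mice 1 to 4, without overlap. The log2 fold change was -0.78 (SE 0.120, 95% interval -1.04 to -0.52, adjusted p = 0.00021 by edgeR), or 1.72-fold lower. Sgk1 encodes a kinase of the AKT family that controls ion channels and cell survival and responds to glucocorticoids, serum and osmotic stress. It lies on chromosome 10 from 21882184 to 21999903 (plus strand), with the promoter printed above inside that span. Its level was 255.7, 216.2, 223.0 and 251.8 CPM in WT and 156.1, 165.0, 181.4 and 184.6 CPM in Cxcr2-/- mice 1 to 4. The groups again did not overlap, and the difference was smaller than for Tsc22d3, with a log2 fold change of -0.46 (SE 0.0969, 95% interval -0.67 to -0.25, adjusted p = 0.00195 by edgeR), or 1.38-fold lower. Errfi1 and Sgk1 were called in all 16 alternatives.

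Fkbp5 moved the other way. It encodes FKBP51, a co-chaperone that lowers the receptor's affinity for hormone and is induced by it in a short feedback loop. It lies on chromosome 17 from 28399094 to 28517527 (minus strand). Its level was 55.05, 55.48, 56.34 and 69.16 CPM in WT and 81.47, 75.92, 68.37 and 67.16 CPM in Cxcr2-/- mice 1 to 4. WT mouse 4 was above Cxcr2-/- mice 3 and 4, while the other WT mice were below all of the knockouts. The means were 59.0 ± 6.79 and 73.2 ± 6.73 CPM (SD, n = 4 each), a log2 fold change of 0.31 (SE 0.102, 95% interval 0.09 to 0.53, adjusted p = 0.0249 by edgeR), or 1.24-fold higher. This call was not firm. Leaving out WT mouse 1, 2 or 3 gave log2 fold changes of 0.28, 0.26 and 0.27 (adjusted p = 0.067, 0.0827 and 0.0802 by edgeR), and leaving out Cxcr2-/- mouse 1 or 2 gave 0.26 and 0.30 (adjusted p = 0.0582 and 0.054 by edgeR). It was also lost with upper-quartile scaling (0.19, adjusted p = 0.134), scaling by total counts (0.22, adjusted p = 0.0638) and a covariate for other cells (0.21, adjusted p = 0.0802), all in edgeR, while over the 16 alternatives the log2 fold change stayed positive, from 0.19 to 0.40 (adjusted p from 0.00909 to 0.134 by edgeR or DESeq2).

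Klf9 and Ddit4 were not called. Klf9, a Krüppel-like repressor on chromosome 19 (23141226 to 23168134, plus strand) that is induced early by the receptor, was at 14.1, 17.6, 14.5 and 15.1 CPM in WT and 11.5, 13.6, 16.3 and 16.5 CPM in Cxcr2-/- mice 1 to 4. The groups overlapped, and the log2 fold change of -0.08 had a 95% interval from -0.37 to 0.21 (adjusted p = 0.655 by edgeR). A fall of the size of Errfi1 lies outside that interval. Ddit4 encodes REDD1, which restrains mTORC1 and answers to hypoxia and energy stress as well as to glucocorticoids, and lies on chromosome 10 from 59949669 to 59951834 (minus strand). Its level was 6.50, 10.3, 7.38 and 4.54 CPM in WT and 5.61, 3.96, 6.43 and 7.02 CPM in Cxcr2-/- mice 1 to 4. The WT mice were spread widely (coefficient of variation 33.4%) and on both sides of the knockouts. The log2 fold change of -0.32 (SE 0.242, adjusted p = 0.305 by edgeR) had a 95% interval from -0.85 to 0.20, which is too wide to separate no change from a fall like that of Sgk1, Nr3c1 or Errfi1.

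**Figure D2:**
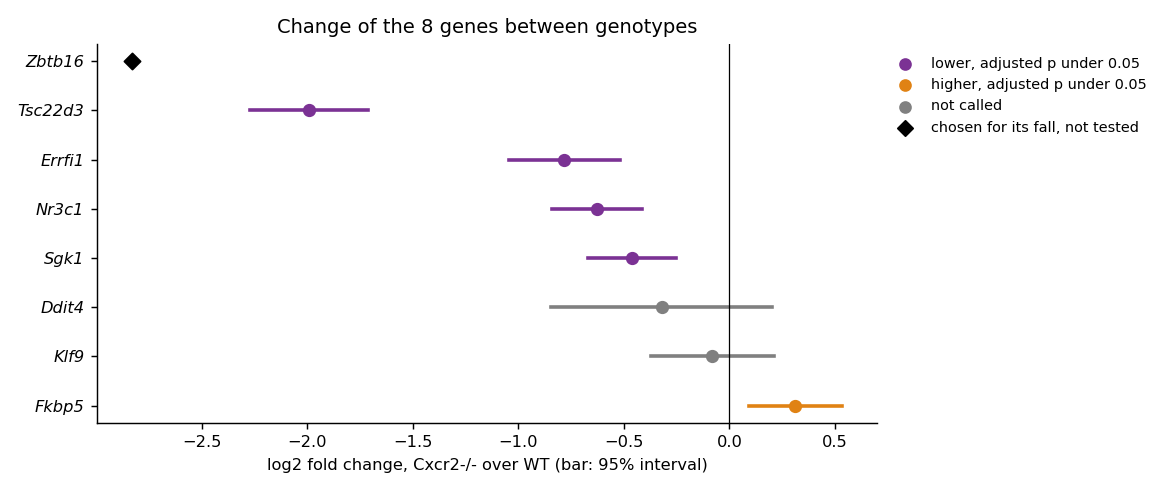
Log2 fold change, Cxcr2-/- over WT (x axis), of the 8 genes, with 95% intervals from edgeR for the 7 genes other than Zbtb16. Tsc22d3, Errfi1, Nr3c1 and Sgk1 lie below 0, Ddit4 and Klf9 have intervals that cross 0, and Fkbp5 lies above it at 0.31; the diamond marks Zbtb16, which was chosen for its fall and not tested.

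The counts in this paragraph describe genes chosen with earlier results of these data known. Of the 7 genes other than Zbtb16, 4 were called lower in Cxcr2-/-, where 21.0% of all genes tested were called lower. These were the receptor gene Nr3c1 and the targets Tsc22d3, Sgk1 and Errfi1. Fkbp5 alone was called higher, where 23.7% of all genes were. The same 4 genes were lower without overlap between the genotypes, against 19.1% of all genes, and 0 of the 7 were higher without overlap, against 22.5%. The median log2 fold change of the 7 was -0.46, and that of all genes tested was 0.01. The totals behind these shares were 3526 genes lower and 3969 higher, a split that turned to 4391 lower and 3076 higher with upper-quartile scaling, which moved the median of all genes by -0.12 on the log2 scale. Relative to the median of all genes, the log2 fold change of Tsc22d3 was -2.01 and that of Fkbp5 0.30 under TMM and under upper-quartile scaling.

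Ratios of counts within a library need no scaling factor. The pairs below were chosen after the values of the genes were seen, and are a description. There were 14.7, 11.7, 10.0 and 8.87 counts of Tsc22d3 per count of Fkbp5 in WT mice 1 to 4, and 1.94, 1.90, 2.67 and 2.63 in Cxcr2-/- mice 1 to 4. This ratio differed between the genotypes by more than its spread within each (means 11.3 ± 2.54 and 2.29 ± 0.419, SD, n = 4 each). It restates the lower Tsc22d3 and higher Fkbp5 means given above. Sgk1 per Fkbp5 was 4.04 ± 0.429 in WT and 2.37 ± 0.395 in Cxcr2-/-, and Tsc22d3 per Nr3c1 was 2.04 ± 0.262 and 0.803 ± 0.149 (SD, n = 4 each). Tsc22d3 RNA was therefore lower in Cxcr2-/- libraries also relative to the RNA of the receptor gene.

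Divided by exon length, as CPM per kilobase, Tsc22d3 was the most abundant of the 8 genes in WT neutrophils (152 ± 24.6, SD, n = 4), followed by Sgk1 (48.3 ± 4.07) and Nr3c1 (41.9 ± 3.22), whose ranges met at 44.1 to 44.3. Zbtb16 (6.25 ± 0.391) and Fkbp5 (6.23 ± 0.717) came next and did not differ beyond their spread, and Ddit4 (4.09 ± 1.37), Errfi1 (3.85 ± 0.337) and Klf9 (3.18 ± 0.324) overlapped each other in CPM per kilobase, as did Ddit4 with Zbtb16 and Fkbp5. In Cxcr2-/- neutrophils Tsc22d3 (38.1 ± 3.99, SD, n = 4) and Sgk1 (35 ± 2.76) overlapped, with Nr3c1 (27.1 ± 2.36) below them, and Zbtb16 was the lowest of the 8 genes (0.879 ± 0.0621 CPM per kilobase). It was below Errfi1 (2.24 ± 0.178), the next lowest, with no overlap, whereas Fkbp5 was at 7.73 ± 0.711.

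A list of 20 genes that load, activate or assist the receptor held 4 genes called lower, where 21.0% of all genes were, and 5 called higher, where 23.7% were. These shares are near the background, and 11 genes were not called (median log2 fold change -0.08). Hsd11b1, the enzyme that regenerates active glucocorticoid inside cells, rose from 59.0, 49.2, 73.5 and 60.4 CPM in WT mice 1 to 4 to 144, 142, 158 and 137 CPM in Cxcr2-/- mice 1 to 4. All of the knockouts were above all of the WT mice for Hsd11b1, with a log2 fold change of 1.26 (SE 0.116, adjusted p = 3.63e-06 by edgeR), or 2.40-fold. Nr3c2, the mineralocorticoid receptor, which binds corticosterone too, fell from 2.17 ± 0.189 to 0.354 ± 0.164 CPM (SD, n = 4 each; log2 fold change -2.60, adjusted p = 3.94e-05 by edgeR), at 8 to 20 counts in the Cxcr2-/- libraries. Hsp90ab1, the constitutive Hsp90 chaperone (165.9 to 275.4 CPM, log2 fold change 0.73), and Smarca4, the ATPase of the chromatin remodeller that the receptor recruits (1.15), were also called higher. Lower were the coactivators Ncoa3 (-0.54) and Ncoa2 (-0.31) and the corepressor Ncor1 (-0.51). The call of Ncoa2 was lost without WT mouse 4 (-0.26, adjusted p = 0.0742 by edgeR). The acetyltransferases Ep300 and Crebbp, the most abundant genes of the list that were not called, both had a log2 fold change of -0.11. With upper-quartile scaling or scaling by total counts the list held 7 genes called lower and 4 higher.

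A wider set of 30 known glucocorticoid-induced genes, split by whether acute stimuli such as cell activation induce them as well, was followed in the same test. Of the 24 that passed the filter, 13 were called lower, 4 higher and 7 neither (median log2 fold change -0.65), and 12 were lower and 3 higher without overlap. Over all genes tested, 21.0% were called lower and 23.7% higher, and 19.1% were lower and 22.5% higher without overlap. Several of these values and of those of the inflammatory and immediate early genes below were known before the lists were drawn up, so they are no independent evidence. In the first part, 9 genes that acute stimuli also induce, 6 were lower, among them Dusp1, a MAP kinase phosphatase (-2.35), Per1, a clock component (-1.75), Rgs2, a regulator of G protein signalling (-1.43), and Zfp36, which destabilises cytokine mRNA (-1.30). Dusp1 was at 4149, 3360, 3845 and 3436 CPM in WT mice 1 to 4 and at 589.6, 426.5, 987.7 and 897.6 CPM in Cxcr2-/- mice 1 to 4, without overlap. Lcn2, a secondary granule protein as well as a receptor target, was higher (1.58), and Cebpd (-0.16, adjusted p = 0.364 by edgeR) and Mt1 (-0.30, adjusted p = 0.724 by edgeR) were not called.

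In the second part, 15 genes for which acute induction is less established, 7 were called lower, 3 higher and 5 neither, with a median log2 fold change of -0.44. Txnip, which binds thioredoxin and limits glucose uptake and whose promoter holds the core letters, was at 1769, 1287, 1136 and 1809 CPM in WT mice 1 to 4 and 699.3, 794.5, 522.2 and 622.9 CPM in Cxcr2-/- mice 1 to 4. It did not overlap between the genotypes and had a log2 fold change of -1.19 (SE 0.173, adjusted p = 0.000138 by edgeR). Il1r2, the decoy receptor for interleukin-1 (-1.25), Arrdc2, an arrestin-domain protein (-0.98), and Cxcr4, the chemokine receptor that retains neutrophils in the marrow (-0.88), fell as well, Il1r2 with overlap between the groups. By flow cytometry, which reads protein and not RNA, the authors found a larger share of Cxcr4+ cells among Cxcr2-/- than WT spleen neutrophils. Anxa1, the anti-inflammatory annexin, rose from 3501 ± 447.3 to 7320 ± 993.6 CPM (SD, n = 4 each) with a log2 fold change of 1.06 (SE 0.141, adjusted p = 6.67e-05 by edgeR), and Mertk, a receptor for apoptotic cells, from 1.65 to 3.54 CPM (1.09). Map3k6, whose promoter also holds the core, had 4 to 22 counts in WT and 15 to 32 in Cxcr2-/- libraries (log2 fold change 1.28, adjusted p = 0.0307 by edgeR). Its call did not survive leaving out WT mouse 1, 3 or 4 or Cxcr2-/- mouse 3 or 4 (log2 fold changes 1.12, 1.36, 1.05, 1.15 and 1.17, adjusted p from 0.05 to 0.0811 by edgeR), nor scaling by total counts (1.18, adjusted p = 0.0534) or the mouse number as a block (1.35, adjusted p = 0.0574). Bcl6 (-0.17, adjusted p = 0.152 by edgeR) and Plin4 (0.39, adjusted p = 0.119 by edgeR) were not called, although Bcl6 was called lower with upper-quartile scaling (-0.29, adjusted p = 0.0173 by edgeR) and total counts (-0.27, adjusted p = 0.012 by edgeR), and Pdk4 and Hif3a had 0 counts in every library. The median of this second part and its summed level differed in direction: the sum was 6015 to 7480 CPM in WT and 8046 to 10330 CPM in Cxcr2-/- libraries, with Anxa1 the largest contributor.

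Of 12 inflammatory genes that glucocorticoids are known to lower, 11 passed the filter. Of these, 6 were called lower and 2 higher, against 21.0% and 23.7% of all genes, and the median log2 fold change was -1.44. Ptgs2, the inducible cyclooxygenase (-3.22), and the chemokines Ccl3 (-2.72), Cxcl2 (-2.06) and Ccl4 (-1.94) were lower, while Mmp9, the gelatinase of tertiary granules (0.64), and Tnf (0.50, with overlap between the groups) were higher. Cxcl2 was at 349.2 to 665.8 CPM in WT and at 12.7, 9.91, 235.5 and 192.7 CPM in Cxcr2-/- mice 1 to 4, and its adjusted p of 0.0484 by edgeR rose above the threshold when any WT mouse (adjusted p from 0.0638 to 0.105) or Cxcr2-/- mouse 1 or 2 (0.0656 and 0.0592) was left out, with log2 fold changes from -2.18 to -1.67. It was above the threshold in DESeq2 (adjusted p = 0.0895) and with total counts (adjusted p = 0.0548 by edgeR) as well. The medians of the induced and of the repressed targets were thus both below 0. The reason for this was not tested.

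**Figure D3:**
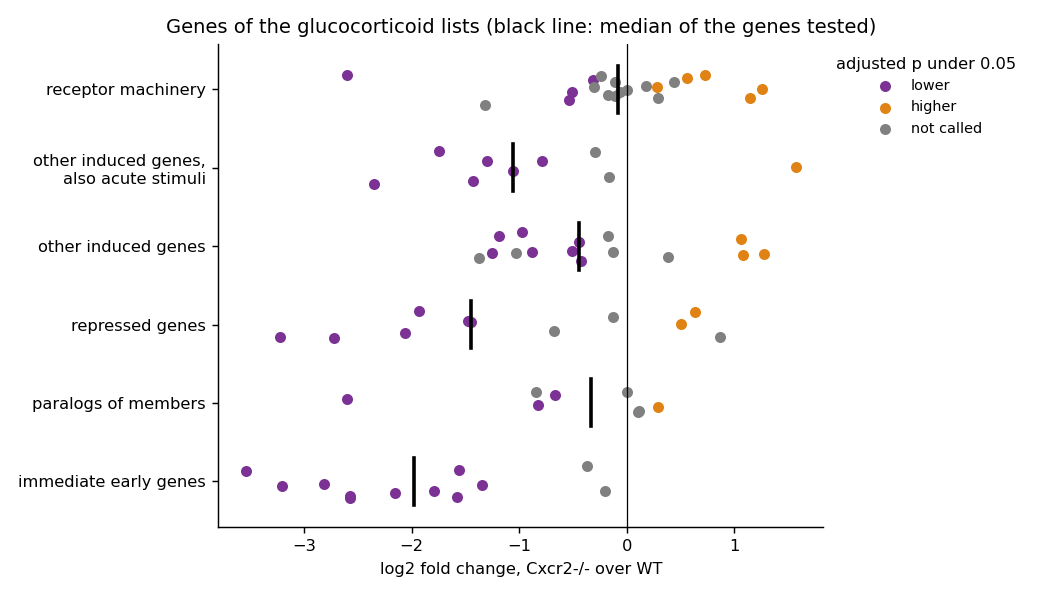
Log2 fold change, Cxcr2-/- over WT (x axis), of each tested gene in 6 lists (y axis), coloured by call at an adjusted p under 0.05, with a black line at the median of each list. The medians are -0.08 for receptor machinery, -1.06 and -0.44 for the 2 lists of other induced genes, -1.44 for repressed genes, -0.33 for paralogs of the 8 genes and -1.97 for immediate early genes.

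Immediate early genes, which encode factors such as AP-1 that cells make within minutes of activation, moved with many of these genes. All 12 listed were tested and 10 were called lower (median log2 fold change -1.97), where 21.0% of all genes tested were. Egr1 was at -3.54, Atf3 at -3.21 and Fos at -2.82. The summed level of the 12 was 8568 to 9857 CPM in WT and 2001, 1548, 2787 and 2574 CPM in Cxcr2-/- mice 1 to 4. Primary granule genes of neutrophil precursors moved the other way, with 4 of 4 called higher, where 23.7% of all genes were. They summed to 2.40 to 12.5 CPM in WT and 53.4, 54.7, 207.7 and 351.1 CPM in Cxcr2-/- mice 1 to 4. Cxcr2-/- mice 3 and 4 were thus above Cxcr2-/- mice 1 and 2 in both sums, and also in Tsc22d3, Sgk1, Klf9 and Ddit4. They were below them in Zbtb16, Fkbp5 and Nr3c1, and Errfi1 kept neither order. With scaling by total counts alone, Zbtb16 and Nr3c1 lost this order. Zbtb16 was then at 4.385 CPM in Cxcr2-/- mouse 1 and 4.578 CPM in Cxcr2-/- mouse 3. Nr3c1 was at 189.5 CPM in Cxcr2-/- mouse 1 and 212.8 CPM in Cxcr2-/- mouse 4. The part of cell activation and of neutrophil maturity in the values of the 8 genes was not tested. Secondary granule genes (5 of 5 called higher, against 23.7% of all genes) summed to 20760 to 25110 CPM in WT and 47520 to 68630 CPM in Cxcr2-/- libraries.

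**Figure D4:**
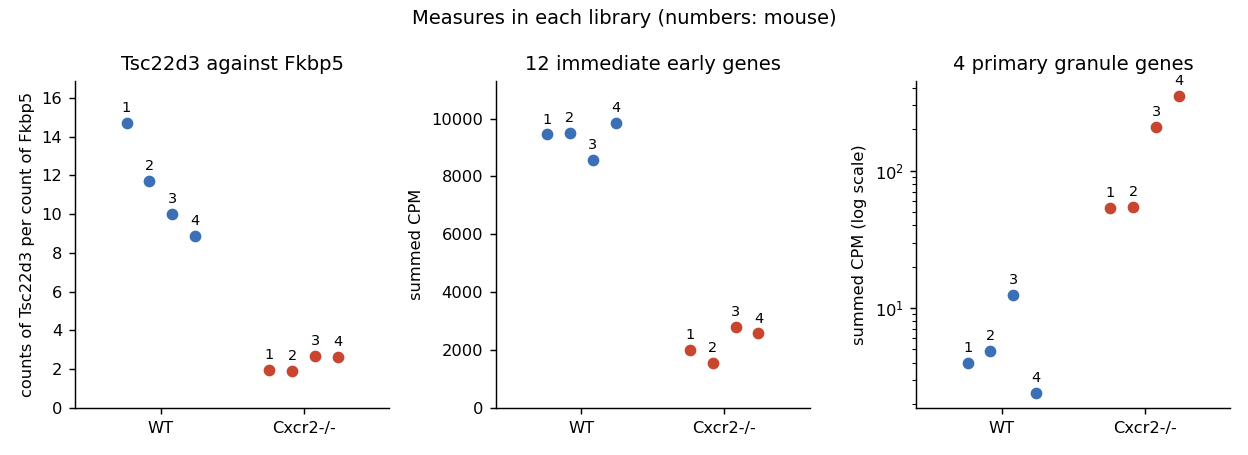
Counts of Tsc22d3 per count of Fkbp5, summed CPM of 12 immediate early genes and summed CPM of 4 primary granule genes (y axes, the last on a log scale) in each WT (blue) and Cxcr2-/- (red) library, numbered by mouse. The genotypes do not overlap in any of the 3 measures, and Cxcr2-/- mice 3 and 4 lie above Cxcr2-/- mice 1 and 2 in each.

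Relatives of the 8 genes by sequence did not share a direction. Of 8 paralogs tested, Nr3c2, Klf16 (-0.82) and Tsc22d2 (-0.67) were called lower and Sgk3 higher (0.29, adjusted p = 0.0304 by edgeR), with the Sgk3 call lost without WT mouse 1, 2 or 4 or Cxcr2-/- mouse 2, 3 or 4 (log2 fold changes from 0.23 to 0.28, adjusted p from 0.0613 to 0.116 by edgeR), with upper-quartile scaling (0.17), total counts (0.20), either other filter (0.27 and 0.25) and the covariate (0.28). Tsc22d4, another GILZ relative, was at 264.9 and 286.7 CPM and was not called (0.11, 95% interval -0.16 to 0.39, and -0.01 with upper-quartile scaling). Of 39 other genes named Zbtb, 35 passed the filter, 14 were lower, 8 higher and 13 not called, against 21.0% lower and 23.7% higher among all genes, with a median log2 fold change of -0.07. The largest changes among those called were Zbtb10 (-2.09) and Zbtb39 (-1.49) in the lower and Zbtb40 (1.14) and Zbtb3 (0.79) in the higher direction, and the number called higher fell to 4 with upper-quartile scaling or without WT mouse 3 and to 5 with total counts, with the covariate for other cells or without WT mouse 2. Zbtb3 was weakly expressed, at 0.749 and 1.31 CPM, and its adjusted p of 0.0499 by edgeR exceeded the threshold without WT mouse 2, 3 or 4 or Cxcr2-/- mouse 1, 2 or 4, in DESeq2, under each of the 3 other scalings, with no filter and with the covariate (highest adjusted p 0.142).

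By the root mean square difference of centred log2 CPM over the 8 libraries, the genes most like Zbtb16 were Ptgs2os2 (0.24), Gm38130 (0.26), Peak1 (0.26), 5430425K12Rik (0.27) and Calr4 (0.27). This measure includes the contrast for which Zbtb16 was picked, so it ranks genes with a like fall and is a description. Peak1, a pseudokinase of the cytoskeleton and the most abundant of the 5, averaged 116.4 ± 27.3 CPM over the WT mice and 15.8 ± 2.52 CPM over the knockouts (SD, n = 4 each). Among the 7 other genes Tsc22d3 was the closest to Zbtb16, at place 91 of the tested genes with a difference of 0.46, and Fkbp5 the farthest, at place 10812 with a difference of 1.57.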

How the data were processed

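The authors sorted the neutrophils, made directional libraries after ribosomal RNA depletion, aligned the reads to mm10 with STAR and counted them with HTSeq, and deposited raw counts per gene and library. The annotation release and strand setting are not given in the sources used here. GENCODE M21 gave symbols and positions for 52133 of 55414 genes, and 1.42% of the counts were on the others. HTSeq's own totals (42.4% to 53.6% of its units) entered no test. The counts were fitted in R 4.3.3 with edgeR 4.0.16 (glmQLFit, TMM, filterByExpr, genotype as the only term, all 8 libraries, common biological coefficient of variation 0.202), and the steps were tested on simulated data. All pairs of replicates differed by more than sampling noise. The members and lists were chosen with earlier results of these data known. Named were the 8 genes, up to 4 called genes of a list with the largest changes in each direction, up to 2 abundant uncalled ones and the 5 genes most like Zbtb16 (prior count 2). Csf3r, Csf1r, Cd3d, Cd3e, Thy1 and Tsc22d4 were named for their role in a list, and some genes under the rule are not reported here. Alternatives were DESeq2 1.42.0, RLE, upper-quartile and total-count scaling, no filter, at least 10 counts in every library, a replicate block, a covariate for other cells and each library left out.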

Additional observations from a re-analysis of the deposited data

Results flagged for a closer look

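In 16 sets of 4 libraries (8 genes in both genotypes), 1 library stood apart by Dixon's test. Fkbp5 in WT mouse 4 was at 69.16 CPM, where the WT libraries ranged from 55.05 to 69.16 CPM, and its gap to the nearest WT library was 0.909 of that range, above the critical value of that test for 4 samples at a confidence of 95%. Chance places about 1 in 20 such groups past this value. Without this library the log2 fold change of Fkbp5 was 0.40.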

How the results depend on the processing

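The log2 fold changes of the 8 genes and 7 counts of called genes were computed under 16 alternatives. The ratios, levels per kilobase, likeness and promoter search were not. Of 240 values, 227 kept their direction and side of the threshold (for a count, within 1.5 times), 8 lost the call, 3 moved and 2 changed sign. Zbtb16, which was not tested, was counted as kept where its log2 fold change moved by less than the SD of its log2 CPM within genotypes. The calls of Nr3c1, Tsc22d3, Sgk1 and Errfi1 held under all 16. Fkbp5 lost its call with upper-quartile scaling (log2 fold change 0.192), scaling by total counts (0.219) and the covariate for other cells (0.214), and ranged from 0.26 to 0.399 with each library left out (highest adjusted p 0.0827 by edgeR). The uncalled Ddit4 turned to 0.0108 with the covariate, and the uncalled Klf9 ranged from -0.162 to 0.0196 with each library left out, positive only without Cxcr2-/- mouse 1. Zbtb16 moved to -2.95 with upper-quartile scaling. Receptor machinery genes called lower numbered 4, and 7 with upper-quartile scaling and 7 with total counts. Upper-quartile scaling moved the median of all genes by -0.119, and 41.2% of calls were then higher, against 53%. The cause of these differences was not tested. Same-numbered mice are different animals, and their deviations correlated at 0.116, -0.188, 0.158 and -0.262. WT mice 1 and 3 correlated best with the Cxcr2-/- mouse of their own number, and WT mice 2 and 4 with another. Whether a number stands for a shared batch is not given in the sources used here. These few correlations show no clear pairing and cannot exclude one. With the replicate block Fkbp5 was at 0.314 (adjusted p = 0.0449 by edgeR), 3 in place of 4 of the other induced genes were called higher, 5 in place of 4 receptor machinery genes lower, and 3349 genes lower and 3719 higher in all. Ddit4, with 143 to 513 counts and a wide spread between mice, was measured least precisely of the 8 genes.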
